A study of Nicotiana tabacum with 6 samples.

Results

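The genes described are BIP4 (ncbi_107818867) and BIP5 (ncbi_107771425), which encode BiP chaperones of the endoplasmic reticulum (ER), and NtbZIP60 (ncbi_107761889), which encodes a transcription factor of the unfolded protein response. They were taken by their gene numbers, and all 3 were found among the 68476 loci of the deposited table. They had been selected on their FPKM difference between the groups of these same libraries, so their own values are given as a description and without a test. The libraries were made from poly(A) RNA of mature leaves of tobacco (Nicotiana tabacum). Wild-type tobacco (WT) and tobacco that overexpresses NtispH (OE-NtispH) gave 3 libraries each, and the design text says that the plants grew under the same conditions. NtispH codes for the enzyme that ends the MEP pathway of the plastid, the source of precursors for plastid terpenoids. The labels name no promoter, transgenic line, plant age or number of plants per library, so a p-value here can rest on technical spread alone.

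BiP is an HSP70 chaperone that binds unfolded proteins in the ER lumen and, using ATP, helps them fold or holds them back. When unfolded proteins accumulate, the membrane kinase and ribonuclease IRE1 splices the bZIP60 transcript, and the bZIP60 protein made from the spliced form enters the nucleus and raises the expression of ER chaperone genes, BiP genes among them. The response is known in leaves from secretion of defence proteins, virus infection and heat. A gene-level value counts spliced and unspliced bZIP60 transcripts together, so the active form was not measured.

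Values are FPKM, fragments mapped to a transcript scaled by its length and by the size of the library, so that levels can be compared between genes. The locus named for the overexpressed gene, ISPH, did not follow the labels. The labels do not say whether its value includes the transcript of the transgene. ISPH (LOC107760258) stood at 108.2, 3038 and 558.6 FPKM in WT and at 2761, 684.6 and 853.7 FPKM in OE-NtispH (replicates 1 to 3 in turn, as in all such series below), so every direction below is between libraries as labelled. Of 8 leaf mesophyll marker genes all were detected. Their summed level was 15940 to 18240 FPKM in WT and 10840 to 13410 FPKM in the libraries labelled OE-NtispH. The marker CAB21 overlapped between the groups, at 3433, 3807 and 3463 FPKM in WT and 3031, 3160 and 3564 FPKM in OE-NtispH (limma, adjusted p = 0.559). Of these 8 markers 2 passed the test as lower, Lhcb6 and GAPB (limma, adjusted p of 0.0486 and 0.0363). Of all tested loci 1.81% passed in either direction. With median-of-ratios scaling or quantile normalization 1 of the 8 passed. The 2 glandular trichome markers, NtPDR1 and NtABS, had log2 changes of 0.5 and 0.03, and neither passed (limma, adjusted p of 0.272 and 0.912). None of the 3 pollen and flower markers was above 0 and 7 of 10 root markers were at 0 in every library, while the nicotinate pathway gene NtQPT2a was at 16.5 to 37.6 FPKM. The part of the mesophyll difference in the results below was not tested, and in bulk leaf RNA fewer cells of a type and less RNA per cell cannot be told apart. Of all 40725 tested loci 66.3% had a log2 change above 0, with a median of 0.13.

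NtbZIP60, the regulator, was nearly constant in WT and higher in each library labelled OE-NtispH. The WT libraries had 13.3, 13.7 and 13.5 FPKM. Those labelled OE-NtispH had 22.4, 19.7 and 18.1 FPKM. The lowest of these lay above the highest WT value, so the groups did not overlap. The same was so, in the same direction, for 23.9% of all tested loci, and it is no result about the gene. The means were 13.5 ± 0.18 and 20.1 ± 2.16 FPKM (SD, n = 3), a ratio of 1.49 and a difference of 0.53 ± 0.12 (SE) in log2(FPKM + 1) that 9.09% of tested loci reached. Of the 9509 tested loci within 2-fold of its mean level, 1.21% had a WT spread as small as its own.

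BIP4, one of the chaperone genes, had the largest difference of the 3 genes on the log2 scale. Its WT levels were 3.53, 3.48 and 3.05 FPKM. In the libraries labelled OE-NtispH its levels were 8.99, 10.03 and 4.60 FPKM. Replicates 1 and 2 were high and replicate 3 stood close to WT, though still above all 3 WT libraries. The means were 3.35 ± 0.26 and 7.87 ± 2.88 FPKM (SD, n = 3), a ratio of 2.35 and a difference of 0.97 ± 0.24 (SE) in log2(FPKM + 1). A log2 change at least as large was found in 1.72% of tested loci. As the 3 genes had been selected on the group difference, such shares are no result about them. The spread of BIP4 among the libraries labelled OE-NtispH was a log2 SD of 0.529, and 94.7% of the 16493 loci within 2-fold of its level had an SD no larger.

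BIP5, another BiP gene, stood at 2.66 to 4.65 times the level of BIP4 in every library. The WT libraries held 13.6, 16.2 and 12.05 FPKM. Those labelled OE-NtispH held 27.1, 26.7 and 18.4 FPKM. Replicate 3 was again the lowest of its group and lay above the highest WT library, replicate 2. The means were 13.9 ± 2.09 and 24.0 ± 4.88 FPKM (SD, n = 3), a ratio of 1.73 and a difference of 0.73 ± 0.17 (SE) in log2(FPKM + 1) that 3.86% of tested loci reached. With the libraries rescaled by the median of ratios, the groups of BIP5 were barely apart, at 17.3 in OE-NtispH replicate 3 and 17.2 in WT replicate 2. The groups of BIP4 and NtbZIP60 did not overlap either. Without rescaling, 23.9% of all tested loci were likewise higher without overlap. As the 3 genes had been selected on the group difference, this is no result about them.

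**Figure D1:**
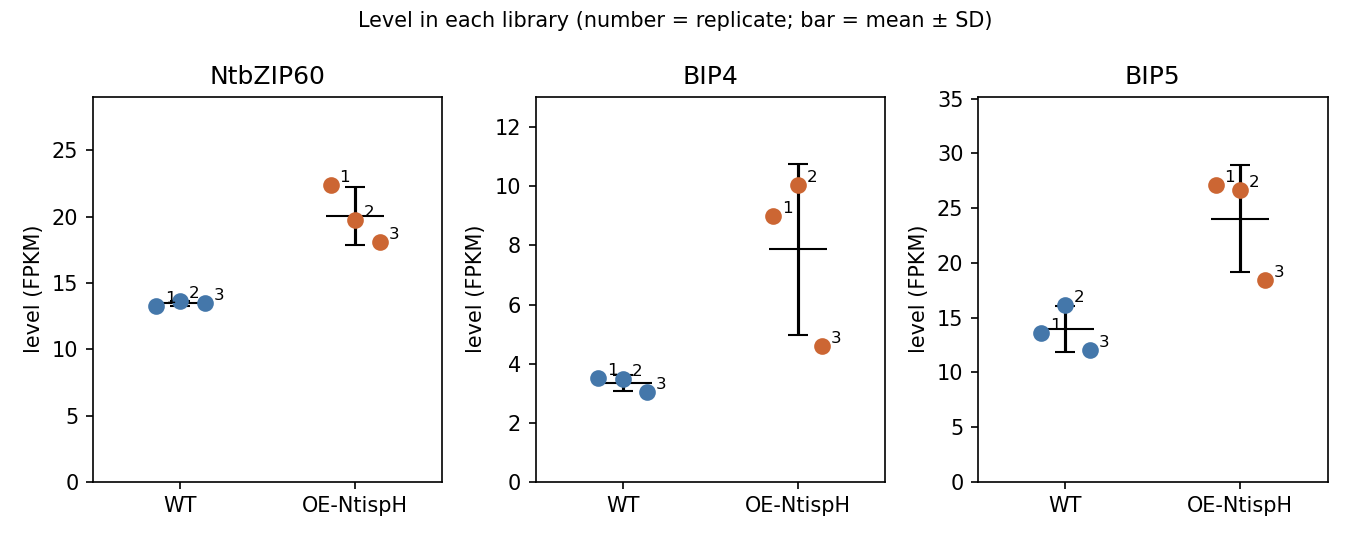
Levels in FPKM of NtbZIP60, BIP4 and BIP5 in the 3 WT and 3 OE-NtispH libraries, each point a library with its replicate number, and the mean ± SD in black. The WT points of NtbZIP60 lie between 13.3 and 13.7 FPKM, and OE-NtispH replicate 3 is the lowest of its group for all 3 genes.

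The chaperones followed the regulator between the groups, as is given by their selection on that difference. Within the groups they did so only in part, and in WT the regulator hardly varied. Relative to the WT mean in log2(FPKM + 1), NtbZIP60 stood at 0.69, 0.52 and 0.40 in OE-NtispH replicates 1, 2 and 3. BIP4 stood at 1.20, 1.34 and 0.36 in the same libraries. BIP5 stood at 0.92, 0.90 and 0.39. In OE-NtispH replicate 3 the chaperones therefore differed from WT by about as much as the regulator did, and in replicates 1 and 2 by more. NtbZIP60 was highest in replicate 1, as was BIP5, while BIP4 was highest in replicate 2. In WT the order of the libraries differed for all 3 genes: NtbZIP60 ranged from -0.02 to 0.02, whereas BIP5 ranged from -0.19 to 0.21 and BIP4 from -0.10 to 0.06.

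Ratios of the levels within a library show the same. The ratio of BIP5 to NtbZIP60 was 1.02, 1.18 and 0.895 in WT against 1.21, 1.35 and 1.02 in OE-NtispH, so the groups overlapped. The ratio of BIP4 to NtbZIP60 was 0.265, 0.255 and 0.227 in WT. It was 0.402, 0.508 and 0.254 in the libraries labelled OE-NtispH, replicate 3 lying within the WT range. The ratio of BIP5 to BIP4 was 4.15 ± 0.43 in WT and 3.23 ± 0.70 in OE-NtispH (SD, n = 3), with replicate 3 at 4.01.

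**Figure D2:**
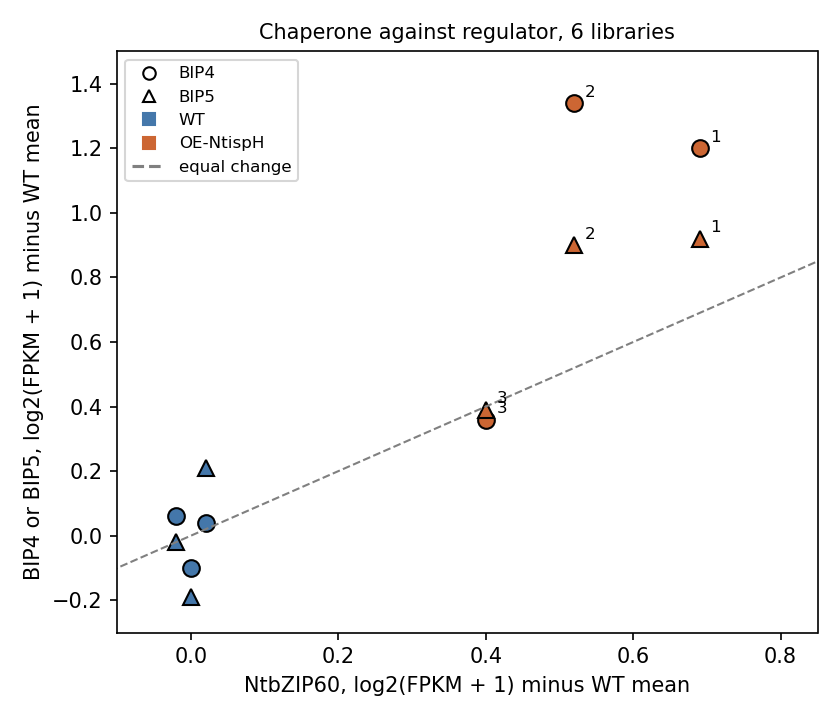
BIP4 (circles) and BIP5 (triangles) against NtbZIP60, all as log2(FPKM + 1) minus the WT mean of the gene, in 6 libraries, with OE-NtispH replicates numbered and a dashed line of equal change. Replicate 3 lies near the line at 0.40 for NtbZIP60, and replicates 1 and 2 lie above it.

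As a measure of likeness, Pearson's r with NtbZIP60 over the 6 libraries was 0.94 for BIP5 and 0.92 for BIP4, and Spearman's rho 0.94 and 0.77. The libraries fall into groups that do not overlap for any of the 3 genes, so these values mostly restate the difference between groups on which the genes had been selected, and no p is given. An r at least as high was reached by 4.04% of tested loci for BIP5 and by 5.99% for BIP4. With each library taken as its deviation from its own group mean, r was 0.73 for BIP5 and 0.71 for BIP4, values reached by 10.3% and 11.5% of tested loci. NtbZIP60 deviated by -0.02 to 0.02 in WT and by 0.15, -0.02 and -0.14 in OE-NtispH. The r of the deviations therefore rests mostly on the libraries labelled OE-NtispH. Without OE-NtispH replicates 1 and 2, the libraries farthest from the median of NtbZIP60, r was 0.79 and 0.93. NtbZIP60 was nearly constant in the WT libraries that remain. These values therefore mostly set OE-NtispH replicate 3 against WT, and cannot show whether the chaperones follow the regulator. BIP4 and BIP5 were closer to each other, with r of 0.97, and of 0.88 for the deviations. Each was closer still to a further BIP locus, given below.

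The table names 6 BIP loci, which encode the same kind of chaperone and are similar in sequence. Fragments shared between them may have been assigned to any copy, so the level of a single locus is uncertain. By mean WT level the order was BIP8 (LOC107778329) at 19.9 ± 1.15 FPKM, BIP3 (LOC107799921) at 19.9 ± 2.08, BIP5 at 13.9, BIP1 (LOC107805460) at 11.1 ± 1.01, BIP2 (LOC107805427) at 9.09 ± 0.91 and BIP4 at 3.35 (SD, n = 3). BIP8 and BIP3 overlapped in their WT libraries, as did BIP5 and BIP1, and the other neighbours in this order did not. BIP4 was thus the lowest BIP locus and BIP5 an intermediate one.

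The other BIP loci did not all differ between the groups as BIP4 and BIP5 did. BIP8 was at 20.1, 21.0 and 18.7 FPKM in WT and at 30.5, 38.4 and 23.3 in OE-NtispH, and its log2 change was 0.57 ± 0.17 (SE), with an adjusted p of 0.0938 by limma. BIP2 was at 8.69, 10.1 and 8.46 FPKM in WT and at 14.4, 14.9 and 11.2 in OE-NtispH, and its log2 change was 0.52 ± 0.14 (SE), with an adjusted p of 0.0774 by limma. Neither passed the test. The groups did not overlap in either, as in 23.9% of all tested loci. BIP1 was at 12.3, 10.5 and 10.5 FPKM and at 15.4, 16.5 and 10.2, overlapping because OE-NtispH replicate 3 was the lowest of all 6 libraries (limma, adjusted p = 0.323). BIP3 was at 22.3, 18.7 and 18.6 FPKM and at 18.4, 21.6 and 16.7, and its log2 change was -0.07 ± 0.13 (SE), with an adjusted p of 0.763 by limma. In all 6 loci OE-NtispH replicate 3 was the lowest library of its group, as it was for 34.45% of all tested loci. Likeness over the libraries was not particular to BIP4 and BIP5. Pearson's r was 0.99 for BIP5 with BIP2 and 0.98 for BIP4 with BIP8, and 0.98 and 0.94 for the deviations from group means. BIP3 differed over the 6 libraries, with r of 0.16 with BIP4. For the deviations, its r was 0.73 with BIP4 and 0.47 with BIP5. With NtbZIP60, r over the 6 libraries was 0.93 for BIP2, 0.85 for BIP8, 0.7 for BIP1 and -0.21 for BIP3.

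The sum of the 6 BIP loci was 80.4, 79.97 and 71.4 FPKM in WT and 114.7, 128.1 and 84.4 in OE-NtispH, with means of 77.2 ± 5.11 and 109.1 ± 22.4 (SD, n = 3). Divided by NtbZIP60 in the same library, this sum was 5.73 ± 0.39 in WT and 5.43 ± 0.95 in OE-NtispH (SD, n = 3), with a range of 4.67 to 6.49 in OE-NtispH that contains all 3 WT values. BIP4 made up 4.34% ± 0.06 of the sum in WT and 7.04% ± 1.38 in OE-NtispH (SD, n = 3). BIP5 made up 18.0% ± 1.93 and 22.1% ± 1.41, and BIP3 25.7% ± 2.17 and 17.6% ± 1.99 (SD, n = 3). For BIP5 the closest libraries of the groups were 20.2% and 20.8%.

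**Figure D3:**
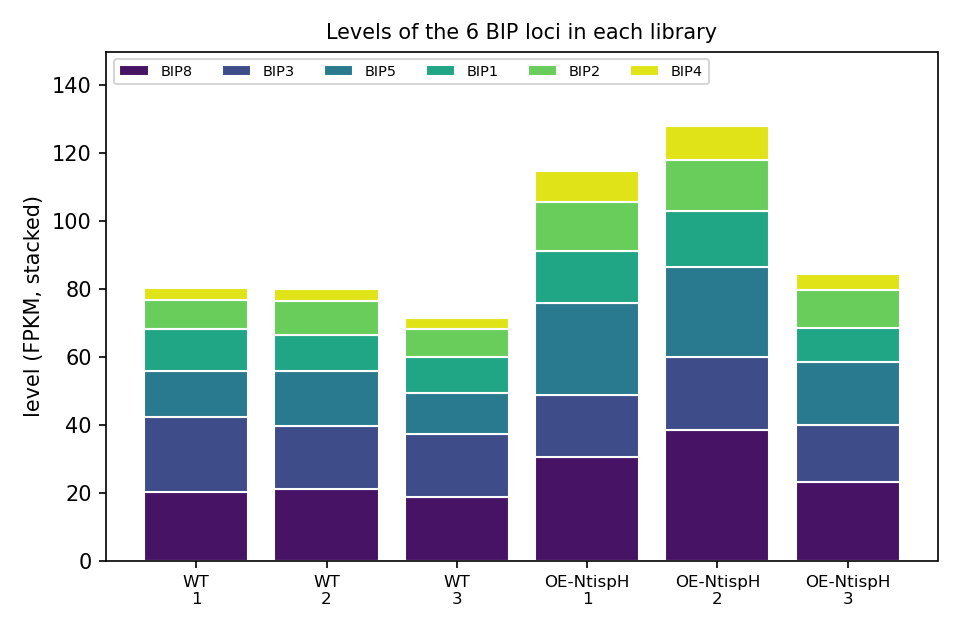
Stacked levels in FPKM of the 6 BIP loci in each library, bars from 0. The sum is 71.4 to 80.4 FPKM in WT and 84.4 to 128.1 in OE-NtispH, and the BIP4 segment at the top is the thinnest in every library.

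Of the 6 other named ER folding genes, 4 BIP loci and 2 further genes, none passed the test (limma with Benjamini-Hochberg adjustment over all tested loci), against 1.81% of all tested loci. At an unadjusted p under 0.05 there were 2, BIP8 and BIP2, against 26.4% of all loci. PDI (LOC107783791), for protein disulfide isomerase, which forms and rearranges disulfide bonds in the ER, was at 33.7, 33.8 and 30.3 FPKM in WT and at 43.4, 36.6 and 34.0 in OE-NtispH (limma, adjusted p = 0.323). BI-1 (LOC107793180), for the ER membrane protein Bax inhibitor 1, which holds back cell death, was at 17.9, 18.2 and 19.1 FPKM and at 28.2, 23.9 and 17.6 (limma, adjusted p = 0.291). The highest library of both was OE-NtispH replicate 1, as for NtbZIP60. Their r with NtbZIP60 over the 6 libraries was 0.84 and 0.81, and that of the deviations from group means 0.88 and 0.95. The r of the deviations rests mostly on the libraries labelled OE-NtispH, as NtbZIP60 was nearly constant in WT. Without OE-NtispH replicates 1 and 2 the r over the libraries was 0.40 and -0.62, again mostly OE-NtispH replicate 3 set against WT.

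The median log2 change of these 6 genes was 0.29, against 0.13 for all tested loci, and 5 of the 6 were above 0, also under the 3 other scalings. The median was 0.14 both with median-of-ratios scaling, where that of all loci was 0.01, and with quantile normalization, where that of all loci was 0.02. The counts rest on OE-NtispH replicate 3. Without it BIP8 and BIP2 passed, with log2 changes of 0.75 and 0.64 (limma, adjusted p of 0.0203 and 0.0297), and the median was 0.48, while the share of all tested loci called higher rose to 5.43%. The log2 change of BIP4 was then 1.27, that of BIP5 0.91 and that of NtbZIP60 0.60.

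Heat shock genes outside the ER were compared, for chaperones and cochaperones of other compartments and for 2 heat shock transcription factors. Of 13 tested none passed, against 1.81% of all tested loci, and 2 had an unadjusted p under 0.05 (limma), against 26.4%. Their log2 change was above 0 for 7, against 66.3% of all loci, and below 0 for 6, with a median of 0.02. With median-of-ratios scaling or quantile normalization 5 were above 0, against 51.7% and 53.2% of all loci. NtHsp70 (LOC107795135), an HSP70 gene, was at 415.3, 393.1 and 390.9 FPKM in WT and at 671.0, 434.1 and 642.6 in OE-NtispH (limma, adjusted p = 0.123). The cytosolic chaperone gene hsp90 (LOC107770659) was at 192.5, 156.6 and 141.1 FPKM and at 244.1, 178.4 and 252.3 (limma, adjusted p = 0.159). NtHsp70 and hsp90 had the largest log2 changes among the 13, 0.52 and 0.45. The lowest was -0.32, for the cochaperone gene CPIP2b. The small heat shock gene Nthsp26a (LOC107764596) was at 0, 0 and 0.061 FPKM in WT and at 0.21, 0.416 and 0.202 in OE-NtispH, under the level for testing.

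Genes of secretory traffic were compared, for vesicle steps at and beyond the ER and not for export from it alone. Of 21 tested none passed, against 1.81% of all tested loci, and 10 had an unadjusted p under 0.05 (limma), against 26.4%. There were 18 with a log2 change above 0, against 66.3% of all loci, and the median was 0.30. With median-of-ratios scaling and with quantile normalization 15 were above 0, against 51.7% and 53.2% of all loci, and the median was 0.16 and 0.15. SAR1 (LOC107783796), for the GTPase that starts the COPII vesicle coat at the ER, was at 34.7, 30.4 and 27.6 FPKM in WT and at 51.7, 40.97 and 51.2 in OE-NtispH, and its log2 change was 0.62 ± 0.14 (SE), with an adjusted p of 0.0588 by limma. Rab2 (LOC107814904), for a GTPase of traffic between ER and Golgi, was at 8.84, 9.02 and 9.13 FPKM and at 11.02, 10.6 and 12.4 (limma, adjusted p = 0.134).

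**Figure D4:**
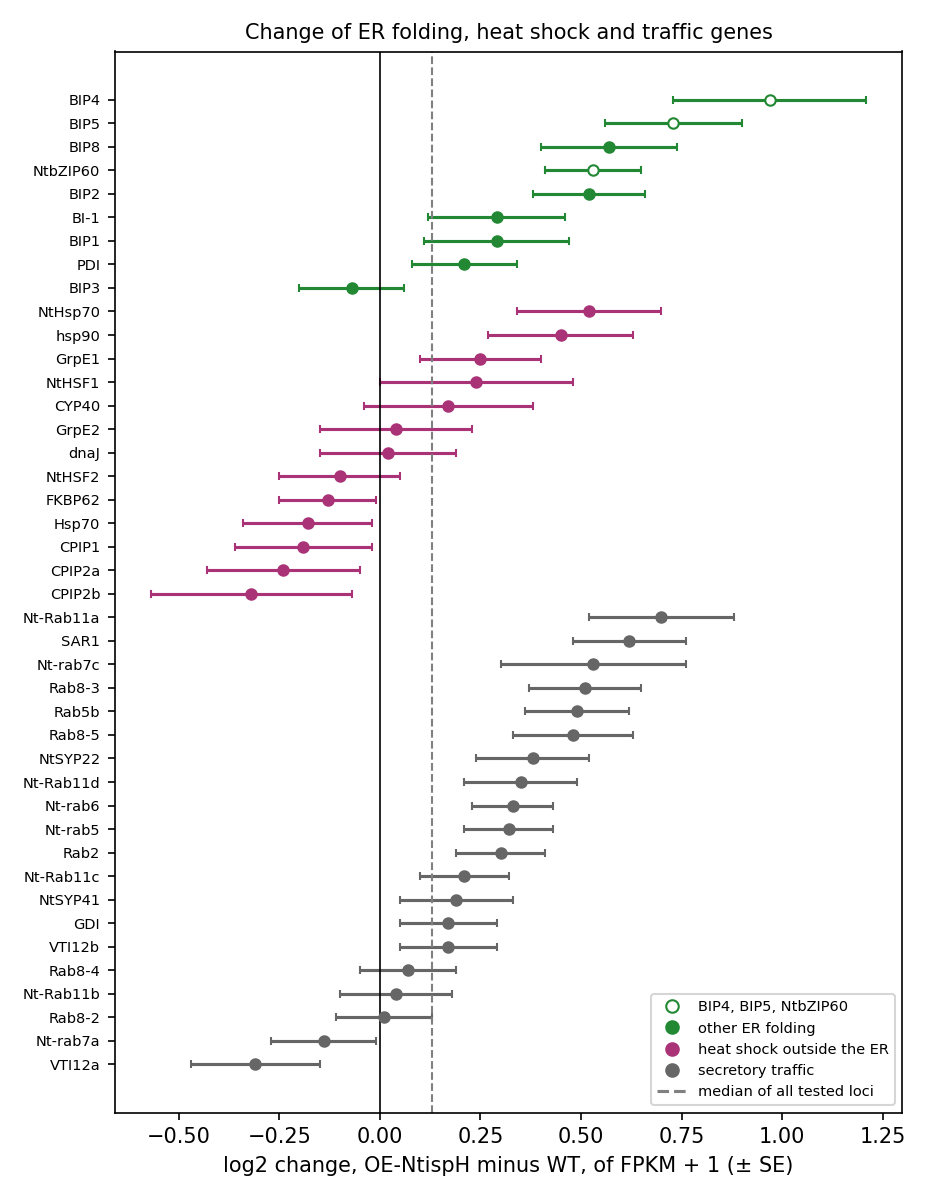
Log2 change of FPKM + 1, OE-NtispH minus WT, with the SE of the fit, for named genes of ER folding, of heat shock outside the ER and of secretory traffic (Nt-Syr1 left out for its wide error). BIP4 is at 0.97, BIP3 at -0.07, and the dashed line marks the median of all tested loci, 0.13.

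Among 696 named loci whose mean reached 5 FPKM, 51 were more like NtbZIP60 than BIP5 was, by Pearson's r over the 6 libraries, and 79 more than BIP4. The 5 most like were CYP94A4 (LOC107794387), a cytochrome P450 gene, with r of 0.995, A10 (LOC107832044) with 0.991, npp3 (LOC107801901) with 0.989, the AP2/ERF factor gene NtERF#205 (LOC107766702) with 0.989 and the calcium-dependent protein kinase gene CDPK9 (LOC107815023) with 0.983. CYP94A4 shows the pattern: it was at 6.72, 6.82 and 6.86 FPKM in WT and at 20.8, 14.1 and 13.0 in OE-NtispH. A likeness of this kind picks loci whose groups differ, so the differences of these loci are given without a test.

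The loci most like the mean of BIP4 and BIP5 were others. They were CYP82E5 (LOC107780157), a nicotine demethylase gene, the nitrate reductase genes NIA2 (LOC107785409) and NIA1 (LOC107823732), the acyl-CoA oxidase gene Acx1B (LOC107812035) and BIP2, with r of 0.992, 0.992, 0.986, 0.992 and 0.988. NIA2 was at 64.1, 56.1 and 41.6 FPKM in WT and at 270.2, 355.0 and 96.2 in OE-NtispH. It had the order of libraries of BIP4, with OE-NtispH replicate 2 highest, replicate 3 lowest of its group and WT replicate 3 lowest of all.

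**Figure D5:**
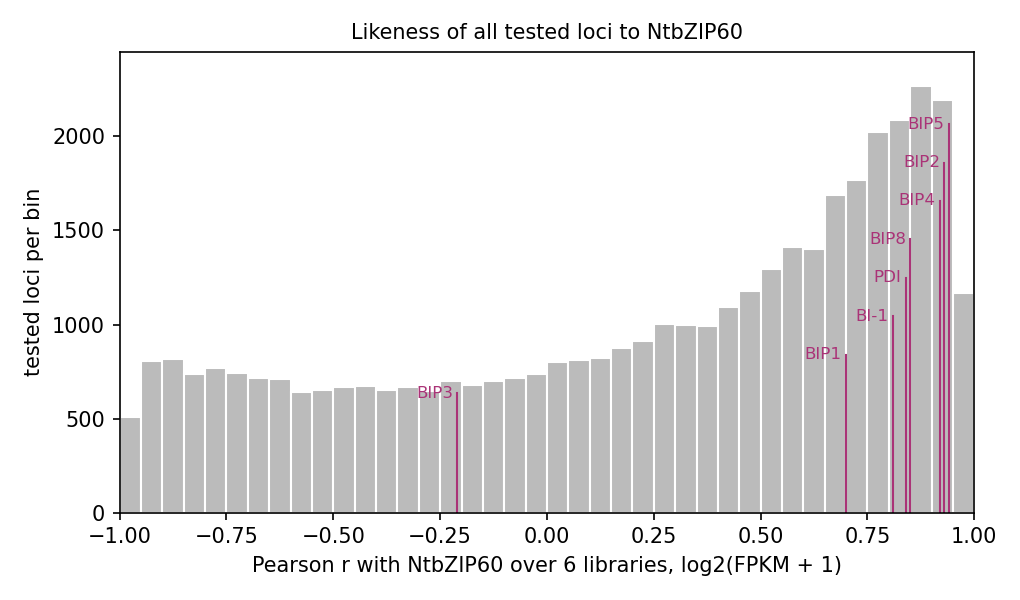
Number of tested loci by their Pearson r with NtbZIP60 over 6 libraries, in log2(FPKM + 1), with the ER folding genes marked by lines whose height has no meaning. BIP5 is at 0.94, BIP3 at -0.21, and 65.8% of all tested loci are above 0.

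The 3 genes were also set beside the level of the locus named ISPH. Pearson's r with ISPH over the 6 libraries was 0.44 for NtbZIP60, 0.32 for BIP4 and 0.49 for BIP5, given as a description. ISPH was highest in WT replicate 2, where NtbZIP60 stood at 13.7 FPKM and BIP4 at 3.48, both within 0.04 in log2(FPKM + 1) of their WT means, and where BIP5 had its highest WT level. The nearest tested neighbours of the 3 genes on the RefSeq assembly ASM71507v2, 6 loci without a gene name, had log2 changes of -0.35 to 0.18, and none passed the test (limma, adjusted p of 0.152 to 0.955).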

How the data were processed

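The authors deposited FPKM values per locus for 6 libraries, already scaled by transcript length and library size. RSEM, StringTie, HISAT2, Bowtie2 and fastp are listed, per the submitters' processing notes. Not given in the sources used here are tool versions and roles, the genome build and how fragments with several matches were counted. Names came from the RefSeq table of ASM71507v2, in which 49268 of 61780 NCBI gene numbers matched. It holds no product names, so pathway lists hold only genes with a symbol.

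Loci whose mean reached 0.5 FPKM were analysed as log2(FPKM + 1) with limma 3.58.1 in R 4.3.3 (trend, robust, two-sided, Benjamini-Hochberg at 0.05), without a replicate term. This scale understates changes of low genes. Descriptions used Python 3.11.15, pandas 2.3.3, numpy 2.4.6 and scipy 1.17.1, and figures matplotlib 3.10.9. The fit was checked on simulated data.

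Read counts per library are unknown, so no counting interval is given. The commonest ratio of low values, searched near 1, put depth at 1.02 to 1.18 times that of WT replicate 1. Members and lists were chosen with earlier results of these data known, and the list regular expressions were adapted to the available symbols after the design was set. Named genes were the 3 members, the ER folding genes that passed, of which there were none, the 2 most abundant of each ER role group, and the 5 named loci of at least 5 FPKM most like NtbZIP60 and most like BIP4 and BIP5. The heat shock and traffic genes, Nthsp26a and the neighbours named were chosen after their values were seen. Planned lists by ER retention signal and by protein identity were not made, as no protein sequences were used here.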

Additional observations from a re-analysis of the deposited data

How the results depend on the processing

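The log2 changes of BIP4, BIP5 and NtbZIP60 stayed above 0 under every alternative run. That of NtbZIP60 moved by more than the replicate spread with median-of-ratios scaling (0.39) and quantile normalization (0.38), which bring the median of all loci from 0.13 to 0.01 and 0.02. The correlation of BIP4 with NtbZIP60 was 0.77 as Spearman's rho and 0.71 over deviations from group means, and that of BIP5 was 0.73 over deviations. The values over deviations rest mostly on the libraries labelled OE-NtispH. The counts over all loci, 506 higher and 231 lower, depend on the settings: 136 higher and 194 lower with median-of-ratios scaling, 235 and 360 with quantile normalization, 980 and 395 for loci whose mean reached 2 FPKM, 26 and 12 with no filter, and 38 and 15 without trend and robust. Leaving out 1 library gave 0 to 2210 higher and 0 to 893 lower. For the other ER folding genes it gave 0 to 2 higher, and a median log2 change of 0.18 to 0.48, both highest without OE-NtispH replicate 3. With the replicate number as a replicate block 48 were higher and 20 lower. Same-numbered libraries deviated with r of -0.13, 0.04 and -0.16, and differently numbered ones with r of -0.09 to 0.19. These values show no pairing by number, but with 3 libraries a group they cannot settle it. The causes were not tested. With 3 libraries a group, no order within a group can be tested.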
